A study of Rattus norvegicus with 18 samples.

Results

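Kinesins are the motor proteins that walk along microtubules. The kinesin genes were taken as every gene on the array whose rat symbol is Kif with a number and an optional letter a to c, Kifc with a number, or Klc1 to Klc4. This gave 33 genes with 43 probes, out of 16665 named genes and 45598 probes. They were measured in hypothalamic RNA of 18 male Wistar rats labelled as 9 weeks old, each on a single-colour array of its own. The 6 control rats were not restrained and had no running wheel. The 6 stress rats were restrained for 1 to 1.5 h on 5 days a week over 3 weeks and had no wheel. The 6 rats of the stress and exercise group were restrained in that way too and could run in a wheel for 4 weeks, of which the first came before the restraint. The hypothalamus is a mixed tissue, so fewer cells of a type and less RNA per cell cannot be told apart in any value given here.

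Most kinesins move toward the plus end of the microtubule, which in an axon points away from the cell body. The conventional motor pairs heavy chains (Kif5a, Kif5b, Kif5c) with light chains (Klc genes) that bind cargo, and it carries mitochondria, vesicles and neurofilaments down the axon. The Kif1 motors carry synaptic vesicle precursors and dense-core vesicles, and Kif3a with Kif3b or Kif3c forms a second class that also serves cilia. A separate group of kinesins builds the spindle and divides the cell, and its genes are known for high expression in cycling cells and low expression in mature neurons.

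Of the 33 genes, 12 were grouped as transport motors, 3 as light chains, 11 as kinesins of cell division, 3 as kinesins of cilia and 4 as others. Kif1a, Kif17, Kif21b and Klc2 are not analysed here. Tests were limited to probes that the scanner software called well above background in 5 or more of the 6 rats of some group, which left 37 kinesin probes of 28 genes. A gene is represented by its brightest tested probe, and a level is log2 of the processed intensity minus the 75th percentile of the same array, so that 0 is that percentile. Levels of different probes are not amounts of RNA and are set side by side only as a description of the probes.

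The tissue label was checked against 15 hypothalamic genes, of which 14 were tested. Pmch, the gene of melanin-concentrating hormone, had a level of 8.31 in control, and Avp, the gene of vasopressin, of 6.98. The arrays lay on 5 slides. Slides 1 to 3 held the 6 control rats and stress rats 1 to 4, and slides 4 and 5 held stress rats 5 and 6 and all rats with stress and exercise. The first principal component of all tested probes held 31.7% of the variance and separated these slide sets without overlap. No slide set held both control rats and rats with stress and exercise, and no slide held both control and stress rats. The share of probes called well above background ran from 63.6% to 77.7% over the arrays.

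Sequences just before the transcription start are shown for 4 genes: Kif5c and Klc1 from the transport machinery, Kif23 and Kifc1 from cell division. They are examples with marked letters and are not typical of their groups. Each is the 250 bases before an annotated start in RefSeq on the build GRCr8, read 5′ to 3′ on the strand of the gene. Kif5c lay at chr3:54441057-54441306 (plus strand), Klc1 at chr6:136644350-136644599 (plus strand, 1 of its 3 starts in the table), Kif23 at chr8:71320585-71320834 (minus strand) and Kifc1 at chr20:5000679-5000928 (plus strand). Capitals mark CCAAT, the cell cycle homology letters TTTGAA or TTCGAA, and the cyclic AMP response element TGACGTCA, each searched on both strands, so that ATTGG and TTCAAA are matches on the opposite strand. No marked match overlapped another.
Kif5c: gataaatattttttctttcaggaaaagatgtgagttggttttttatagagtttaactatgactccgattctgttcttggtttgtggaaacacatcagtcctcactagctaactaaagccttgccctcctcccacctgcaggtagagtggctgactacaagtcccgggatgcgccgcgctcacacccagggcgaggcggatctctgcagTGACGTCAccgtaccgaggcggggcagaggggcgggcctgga
Klc1: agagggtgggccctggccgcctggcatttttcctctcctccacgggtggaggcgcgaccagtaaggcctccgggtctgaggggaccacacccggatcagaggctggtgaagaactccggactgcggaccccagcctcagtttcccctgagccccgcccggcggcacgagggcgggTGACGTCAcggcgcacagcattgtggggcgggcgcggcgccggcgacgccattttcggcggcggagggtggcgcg
Kif23: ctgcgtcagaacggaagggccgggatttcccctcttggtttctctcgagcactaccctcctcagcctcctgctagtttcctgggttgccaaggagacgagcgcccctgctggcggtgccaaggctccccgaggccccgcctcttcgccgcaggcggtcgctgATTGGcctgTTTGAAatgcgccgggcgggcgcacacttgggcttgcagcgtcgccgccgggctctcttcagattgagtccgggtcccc
Kifc1: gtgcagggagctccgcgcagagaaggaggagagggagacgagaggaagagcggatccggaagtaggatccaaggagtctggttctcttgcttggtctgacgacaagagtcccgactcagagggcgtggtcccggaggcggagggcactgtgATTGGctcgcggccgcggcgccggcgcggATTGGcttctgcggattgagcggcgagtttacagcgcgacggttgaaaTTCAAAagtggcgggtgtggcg

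The table held 30 promoters of 27 kinesin genes. The 5 light chain promoters came from 3 genes, since the 3 starts of Klc1 gave windows that share most of their bases. Kif26a, Kif2b, Kif5a, Kif7, Kifc2 and Kifc3 had none in it. The cell cycle homology letters stood in 5 of 11 promoters of the cell division group (Kif15, Kif20b, Kif22, Kif23 and Kifc1), in 0 of 9 of the transport group and in 0 of 5 of the light chains, against 17.4% of all 33469 promoters of the same length. CCAAT stood in 6 of 11 promoters of the cell division group and in 3 of 9 of the transport group, against 34.0% of all. The letters GGGCGG, a GC box, stood in 8 of 9 promoters of the transport group and in 5 of 11 of the cell division group. In the light chains they stood in 5 of 5 promoters, from 3 of 3 genes. Over all promoters the share was 30.5%. The median GC content was 61.6% in the transport group and 62.0% in the cell division group, against 51.2% over all promoters. TGACGTCA stood upstream of Kif5c (1 of 9 transport genes), Klc1 (1 of 3 light chain genes) and Kif15 (1 of 10 cell division genes), against 1.59% of all promoters. In Kif5c it lay 42 to 35 bases before the start. In Kif23 the letters ATTGG lay 88 to 84 bases and TTTGAA 79 to 74 bases before the start. A match describes the letters only.

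The groups differed in how many of their probes gave a signal. All 12 transport genes and all 3 light chain genes were tested and well above background on all 18 arrays. Of the 11 cell division genes 6 were tested, and 4 were well above background on all 18 arrays. Kif2c, a motor that takes microtubules apart at the kinetochore, was well above background in 4 of 6 rats of each group. Kif22, which pushes chromosome arms, was so in 3 control rats, 1 stress rat and 2 rats with exercise. Kif20b was so in 3, 1 and 1 rats, and Kif18a and Kif2b in 1 control rat each and in no other. These 5 genes were not tested.

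**Figure D1:**
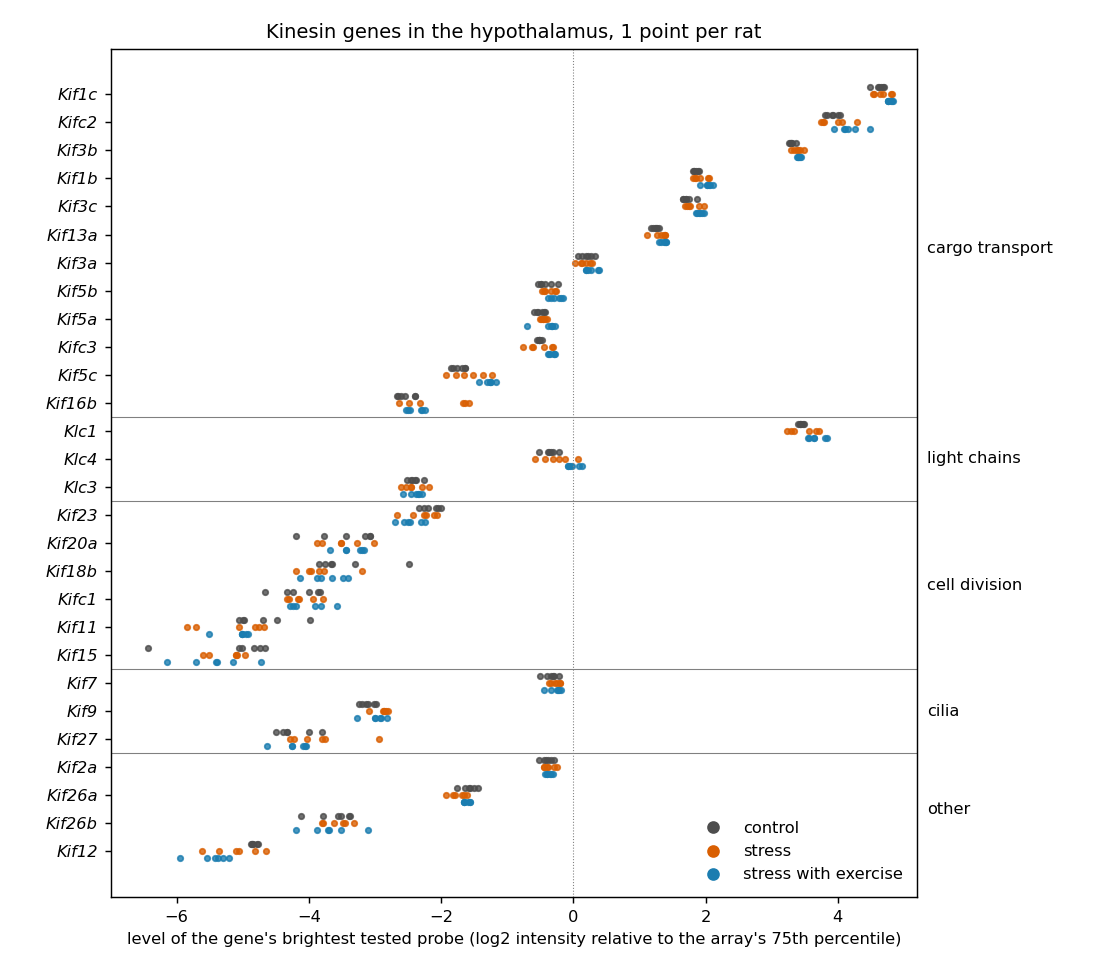
Level of each tested kinesin gene (horizontal axis, log2 intensity relative to the 75th percentile of the array) in every rat, 1 point per rat, coloured by group and sorted within each role. Transport genes and light chains lie between -2.66 and 4.83, and the 6 cell division genes lie between -6.44 and -1.998.

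Mean levels over the 18 rats had a median of 0.76 in the transport group, with a range of -2.33 to 4.69. The median was -0.21 for the light chains, -3.88 for the cell division genes (range -5.26 to -2.30), -3.00 for the cilia genes and -2.64 for the others. The highest levels were those of Kif1c (4.69), Kifc2 (4.01) and Klc1 (3.53). Kif1c carries dense-core vesicles, and Kifc2 is a motor of neurons that walks toward the minus end. The lowest levels among tested genes were those of Kif15 (-5.26), which helps to keep the spindle poles apart, Kif12 (-5.13) and Kif11 (-4.97), the main motor that pushes the poles apart. Among all 13052 named genes tested, 95.3% had a dimmer brightest probe than Kif1c and 1.30% a dimmer one than Kif15.

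In the comparison of stress and exercise with control, which adds restraint and running together, 10 of the 28 tested kinesin genes passed. The background for all named genes was 28.0% called, 18.1% higher and 9.84% lower. Higher were 6 of 12 transport genes and 2 of 3 light chain genes, and lower were 1 of 6 cell division genes and 1 of 4 others. The last, Kif12, had reached the filter on dim probes through the control group alone, where it was high, and this favours a difference. Kif15 had reached the filter in the same way and did not pass. Without Kif12, but with Kif15 still counted, 9 of 27 genes passed. The median difference was 0.16 over the transport genes, 0.23 over the light chains and -0.29 over the cell division genes, beside 0.05 over all named genes. The cell division median depended on dim probes. It was -0.09 over genes well above background on all 18 arrays and -0.07 with normexp background correction. The transport median was 0.16 and 0.13 in these fits. Of the 12 transport genes 12 were above 0, as were 8076 of the 13052 named genes. Of all called named genes 64.8% were higher, but 24.0% when the arrays were not scaled, and then 3 kinesin genes passed, against 12.9% of all: Kif5c (0.39), Kif23 (-0.36) and Kif12 (-0.69). Without rat 4 of the stress and exercise group 6 kinesin genes passed, against 24.2% of all.

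Among the heavy chains, Kif5c was at -1.85 in the lowest, -1.73 in the median and -1.63 in the highest control rat. With stress and exercise the same 3 values were -1.43, -1.26 and -1.16, and in stress they were -1.93, -1.59 and -1.23. Every rat with stress and exercise thus lay above every control rat, and the stress rats spanned both groups. The difference from control was 0.45 (SE 0.09, adjusted p = 0.00267), which is 1.36-fold. Kif5b, the heavy chain used in most cell types, had means of -0.42 ± 0.12 in control and -0.26 ± 0.09 with stress and exercise (SD, n = 6 each), a difference of 0.16 that did not pass (adjusted p = 0.0601). Kif5a, which is enriched in neurons, had means of -0.50 ± 0.07 and -0.39 ± 0.16 and did not pass (0.11, adjusted p = 0.173).

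The light chains bind the cargo of these heavy chains. Klc4 was at -0.51, -0.35 and -0.21 in the lowest, median and highest control rat and at -0.08, -0.04 and 0.13 with stress and exercise. The groups did not overlap, and the difference was 0.35 (SE 0.09, adjusted p = 0.00750). Klc1, the main light chain of neurons, ran from 3.40 to 3.48 in control around a median of 3.44 and from 3.55 to 3.84 with stress and exercise around a median of 3.64. This was a difference of 0.23 (SE 0.08, adjusted p = 0.0394), again with no overlap. Stress rats ran from 3.24 to 3.71, a span wider than that of both other groups together. Klc3, known from the flagellum of rat sperm, differed by 0.01 and did not pass (adjusted p = 0.927).

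Of the vesicle motors, Kif1b was at 1.81, 1.84 and 1.90 in the lowest, median and highest control rat and at 1.91, 2.04 and 2.11 with stress and exercise, a difference of 0.18 (SE 0.05, adjusted p = 0.00984). Kif1c ran from 4.48 to 4.69 in control and from 4.75 to 4.83 with stress and exercise, a difference of 0.17 (SE 0.05, adjusted p = 0.0248). Both genes were higher in all 6 exercised rats than in any control rat. Kif13a, which carries vesicles of the trans-Golgi network, differed by 0.13 and missed the threshold (adjusted p = 0.0501).

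In the second class Kif3b and Kif3c passed and Kif3a did not, with all differences above 0 and differences between these genes not tested. Kif3b was at 3.29 in the median control rat and 3.41 in the median rat with stress and exercise, a difference of 0.11 (SE 0.03, adjusted p = 0.0193). Kif3c, the partner of Kif3a found mainly in neurons, had medians of 1.70 and 1.91, a difference of 0.19 (SE 0.05, adjusted p = 0.0117). The control rat with the highest Kif3c level, at 1.86, touched the range of the exercised rats. Kif3a itself, the shared partner, had means of 0.20 ± 0.09 and 0.27 ± 0.09 (SD, n = 6 each) and did not pass (0.07, adjusted p = 0.410). Of the motors that walk toward the minus end, Kifc3 rose by 0.19 (SE 0.06, adjusted p = 0.0385) in its brightest probe, and Kifc2 differed by 0.25 (SE 0.10) and did not pass (adjusted p = 0.0597).

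Kif23, part of the centralspindlin complex that closes the dividing cell, was the cell division gene that passed. Its level was -2.33, -2.14 and -1.998 in the lowest, median and highest control rat and -2.70, -2.48 and -2.24 with stress and exercise. The groups overlapped in the range -2.33 to -2.24, and the difference was -0.31 (SE 0.10, adjusted p = 0.0303). Outside the kinesins 15 genes of cell division were tested and 1 passed, against 28.0% of all named genes. It was Racgap1, whose protein is the partner of Kif23 in centralspindlin. It was lower (-0.46, SE 0.11, adjusted p = 0.00500), where the background was 9.84%. Of the 15 genes 7 were above 0 and 8 below, with a median of -0.008. The other 5 cell division kinesins did not pass. Kif11 differed by -0.37 (SE 0.22), Kif15 by -0.30 (SE 0.27), Kif18b by -0.28 (SE 0.21), Kif20a, which acts in cytokinesis, by 0.09 (SE 0.19), and Kifc1 by 0.15 (SE 0.15). Their standard errors were 0.15 to 0.27, against 0.03 to 0.16 in the transport group.

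Kif12, whose human counterpart is mutated in a cholestatic liver disease, is given as a description, since its probe was well above background in 6 control rats but in 4 rats of each other group. It was at -4.88, -4.85 and -4.77 in the lowest, median and highest control rat and at -5.95, -5.40 and -5.20 with stress and exercise, a difference of -0.63 (SE 0.14). With normexp background correction the difference was -0.066. Kif15 had likewise reached the filter through control alone, with 5, 4 and 4 rats. None of the 3 cilia genes passed. Kif9, a motor of motile cilia, differed by 0.12 (adjusted p = 0.210) and Kif7, a regulator of Hedgehog signalling at the tip of the cilium, by 0.06 (adjusted p = 0.401). Kif27, another gene of motile cilia, differed by 0.002. Over all 28 genes the groups did not overlap in 8, Kif12 among them, against 18.6% of all named genes.

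Some of these calls lay near the threshold. The call of Klc1 was lost without any 1 of 10 rats (control rats 1 to 6 and rats 1 to 4 with stress and exercise), with differences of 0.20 to 0.24 and adjusted p-values of 0.0533 to 0.0879. That of Kifc3 was lost without any 1 of 9 rats (control rats 1, 2, 3, 4 and 6, and rats 2, 3, 4 and 6 with stress and exercise), with adjusted p-values of 0.0541 to 0.0708. That of Kif23 was lost without any 1 of 7 rats (control rats 2, 4 and 5, and rats 1, 3, 4 and 5 with stress and exercise), with differences of -0.31 to -0.26. That of Kif1c was lost without control rat 5 or rat 4 with stress and exercise. With normexp background correction Kif1b (0.11, adjusted p = 0.0714), Kif1c (0.07, adjusted p = 0.299) and Kifc3 (0.03, adjusted p = 0.696) did not pass, while Kif5c (0.27, adjusted p = 0.00609) and Klc4 (0.18, adjusted p = 0.0275) did.

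Stress was compared with control to ask what restraint alone did. With limma 0 of 28 kinesin genes passed, and 0% of all named genes. An unadjusted p under 0.05 was reached by 4 kinesin genes: Kif9 (0.22, SE 0.07, adjusted p = 0.287), Kif16b (0.49, SE 0.16, adjusted p = 0.299), Kif26a (-0.17, SE 0.06, adjusted p = 0.316) and Kif3b (0.09, SE 0.03, adjusted p = 0.350). Kif9 ran from -3.24 to -2.99 in control and from -3.09 to -2.81 in stress, so the groups overlapped. In the cell division group the smallest p belonged to Kif11 (-0.44, SE 0.22) and Kif18b (-0.38, SE 0.21), among the cilia genes also to Kif27 (0.38, SE 0.19), and among the others also to Kif12 (-0.26, SE 0.14). The light chains Klc4 and Klc1 differed by 0.09 and 0.02. The median over the transport genes was 0.06, beside 0.02 over all named genes. Within scan day 1, where stress was represented by rats 5 and 6, 3 of 28 kinesin genes passed, against 10.6% of all named genes. Within scan day 2 the count was 0, as it was for all named genes.

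Stress and exercise was compared with stress to ask what running added. Again 0 of 28 kinesin genes passed by limma, against 3.26% of all named genes, and 10 had an unadjusted p under 0.05. The smallest adjusted p-values were 0.0712 for Kif5c (0.30, SE 0.09), 0.0840 for Klc4 (0.26, SE 0.09) and 0.0925 for Kifc3 (0.19, SE 0.06). Klc1 differed by 0.20 (SE 0.08), Kif12 by -0.37 (SE 0.14) and Kif26a by 0.14 (SE 0.06). In the groups of cell division and cilia the smallest p belonged to Kif23 (-0.17, SE 0.10), Kif20a (0.14, SE 0.19), Kif27 (-0.38, SE 0.19) and Kif9 (-0.10, SE 0.07). The median was 0.11 over the transport genes and 0.03 over all named genes. Within scan day 1 the count was 0, as it was for all named genes, and within scan day 2, where stress was represented by rats 1 to 4, it was 7 of 28, against 24.4% of all. Of the called named genes 48.8% were higher, but 3.49% without scaling. Without stress rats 5 and 6, 10 of 28 kinesin genes were called, and so were 26.5% of all named genes. The count was 6 without stress rat 5 alone, against 14.5% of all, and 3 without stress rat 6 alone, against 13.5%. The call rate rose for all genes when these rats were left out.

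**Figure D2:**
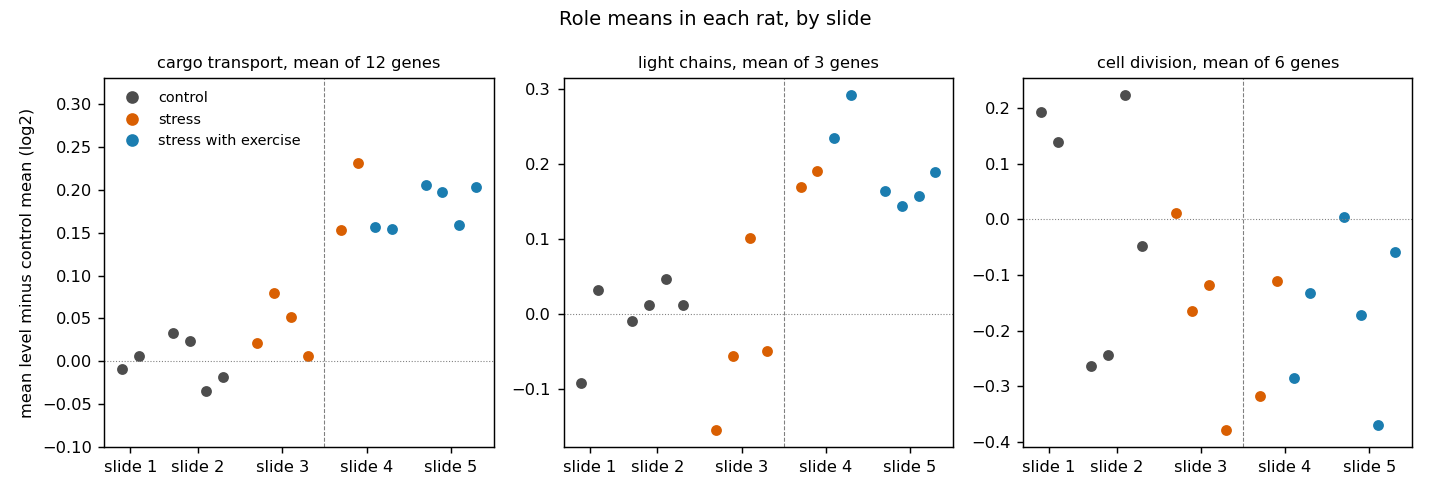
Mean level of the tested transport genes (left), light chains (middle) and cell division genes (right) in each rat, as a log2 difference from the control mean, with rats placed by slide and coloured by group. The dashed line parts slides 1 to 3 from slides 4 and 5, and stress rats 5 and 6 on slide 4 lie with the exercised rats in the first 2 panels.

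The slide set moved with these results. The mean of the 12 transport genes, taken relative to control, was 0.02, 0.08, 0.05 and 0.01 in stress rats 1 to 4, which lay in the slide set of the controls but on a slide of their own. It was 0.15 and 0.23 in stress rats 5 and 6 and 0.15 to 0.21 in the rats with stress and exercise. The means of the light chains were -0.15 to 0.10 in stress rats 1 to 4, 0.17 and 0.19 in stress rats 5 and 6, and 0.14 to 0.29 with stress and exercise. Stress rats 5 and 6 were thus high in both groups of genes, and stress rats 1 to 4 were near the controls. The means of the cell division genes overlapped between the sets, with -0.38 to 0.01 in stress rats 1 to 4, -0.32 and -0.11 in stress rats 5 and 6, and -0.37 to 0.00 with stress and exercise.

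Within the stress group, where the labelled treatment was the same, the 2 rats of the later slides were compared with the 4 of the earlier slides. The 2 were scanned on day 1 and the 4 on day 2, so slide set and scan day cannot be told apart in this contrast. The rats also differed in markers of neighbouring tissue. The mean of 3 tested pituitary genes was -3.68 and -3.67 in the 2 and 0.06 to 0.42 in the 4. In control rats it ran from -3.33 to 0.07. Of these 3 genes 2 were called lower in the 2 rats. The part of tissue content in this contrast was not tested. The test called 6 of 28 kinesin genes, against 16.5% of all named genes. Kif5c (0.42, adjusted p = 0.00682), Klc4 (0.36, adjusted p = 0.0197), Kif3c (0.21, adjusted p = 0.0147) and Kif1b (0.19, adjusted p = 0.0149) were higher on the later slides, where the background was 9.66%. Kif23 (-0.38, adjusted p = 0.0394) and Kif12 (-0.59), whose probe passed the filter through control alone, were lower, where the background was 6.80%. These 6 genes are among the 10 that passed between stress with exercise and control, with the same direction. How many of all named genes passed in both was not counted, so this overlap is only a description. The median over the transport genes was 0.13, with 11 of 12 above 0, beside 0.06 over all named genes. The count was 2 without stress rat 6, against 7.77% of all named genes, and the calls of Kif5c (0.35, adjusted p = 0.104) and Kif3c (0.17, adjusted p = 0.163) were among those lost. Without stress rat 5 those of Klc4 (0.25, adjusted p = 0.249) and Kif12 (-0.46) were lost, and without either rat that of Kif1b. That of Kif23 was lost without stress rat 1, 3, 4 or 6. The count was also 2 without scaling of the arrays, against 7.36% of all, where 26.1% of the called named genes were higher against 58.7% with it.

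**Figure D3:**
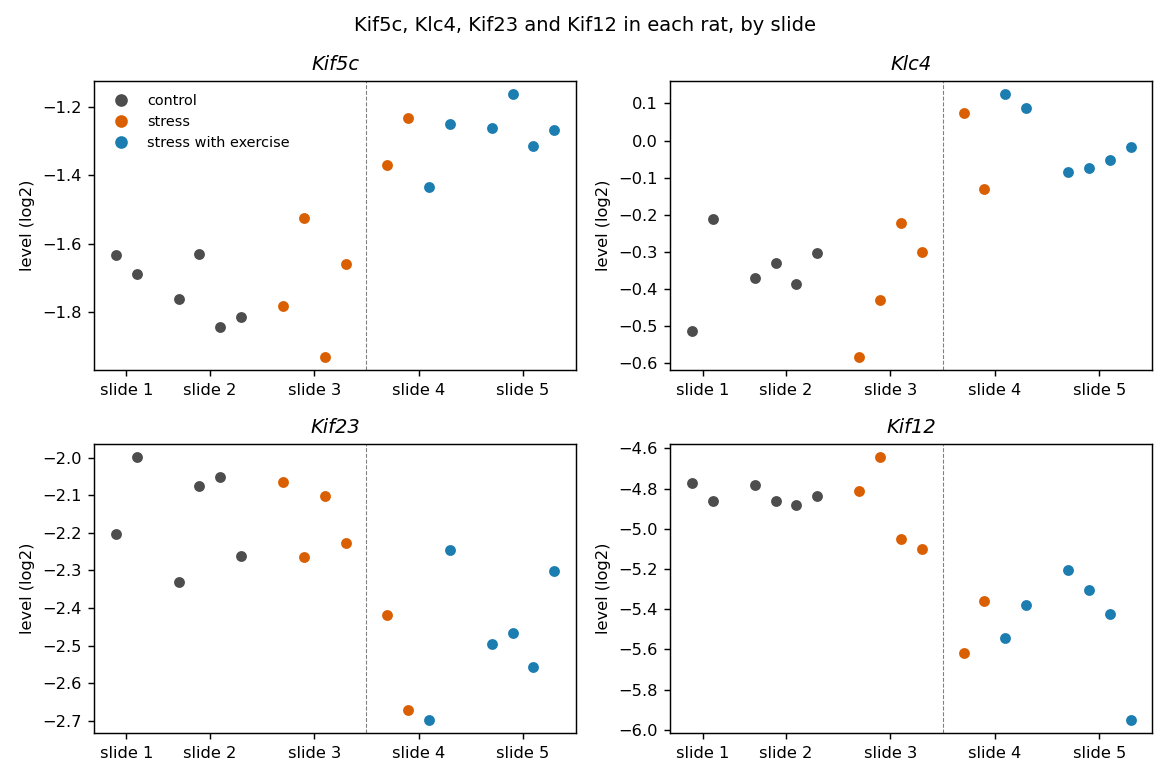
Levels of Kif5c, Klc4, Kif23 and Kif12 (vertical axes, log2) in each rat, placed by slide and coloured by group, with a dashed line between slides 3 and 4. Kif5c in stress rats 5 and 6 was at -1.37 and -1.23, within the range of the exercised rats and above all 10 rats of slides 1 to 3.

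With the slide set as a covariate, 0 of 28 kinesin genes passed between stress with exercise and control, and 1 of all 13052 named genes did (0.00766%), so calls were lost over all genes. The median over the transport genes fell from 0.16 to 0.02, with 7 of 12 above 0. Kif5c differed by 0.03 (SE 0.12), Klc4 by -0.01 (SE 0.12), Kif12 by -0.05 (SE 0.19) and Kif23 by 0.07 (SE 0.14). Because control and exercised rats shared no slide set, this fit rests on the 6 stress rats as the link, with 2 of them on the later slides, and group and slide set cannot be told apart by these 2 groups alone. Slide as a random block also left 0 calls, against 4.23% of all, with Kif5c at 0.36 (adjusted p = 0.108). Only the arrays of slides 4 and 5 allowed stress and stress with exercise to be compared within 1 set, and there 0 kinesin genes and 0 named genes passed, with a transport median of 0.01. Among the arrays of slides 1 to 3 the comparison of stress with control likewise gave 0 calls over all named genes and a transport median of 0.01. Within scan day 1 and within scan day 2, stress with exercise differed from control in 4 of 28 kinesin genes each, against 2252 and 2346 of the 13052 named genes (17.3% on day 1), with Kif5c at 0.42 and 0.41 and passing on both days. Each scan day held arrays of both slide sets. On each day the control rats lay in the earlier set and the exercised rats in the later set. Group and slide set therefore cannot be told apart by the control and exercised rats of a day.

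**Figure D4:**
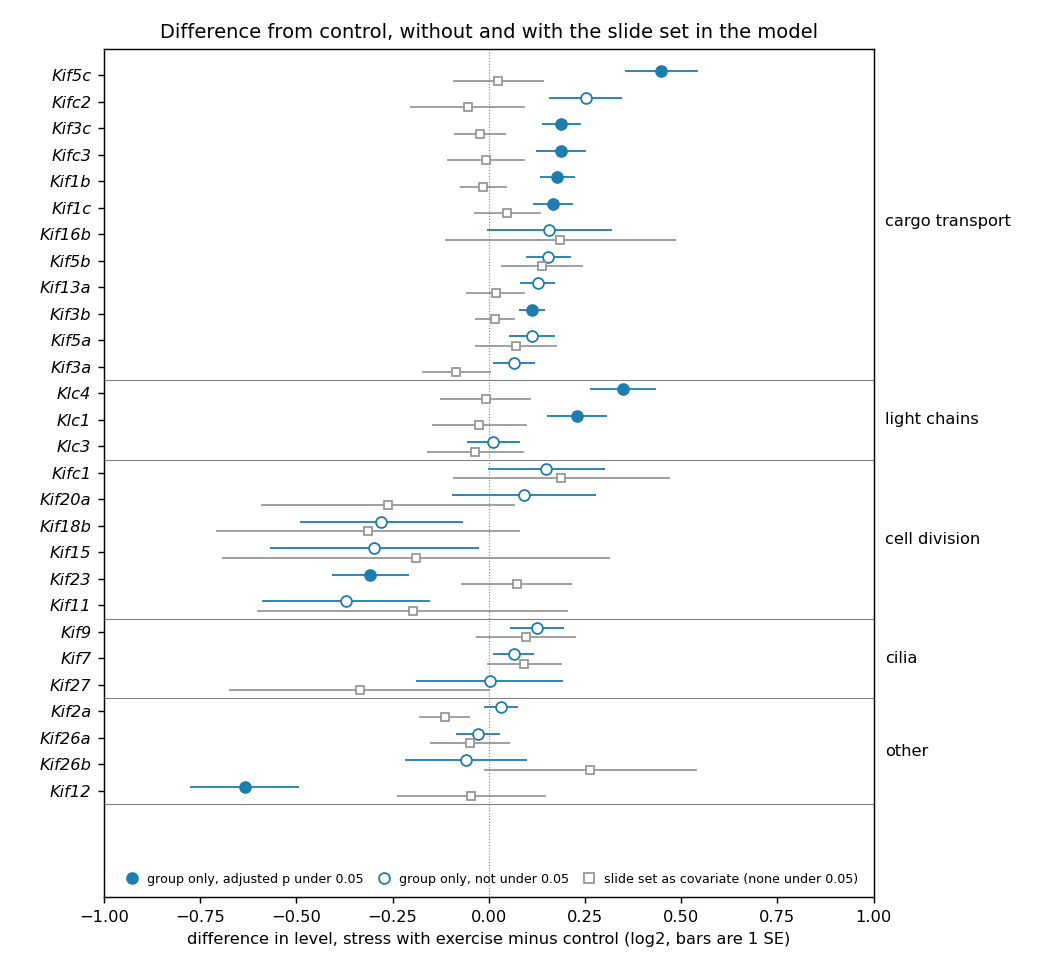
Difference between stress with exercise and control for each tested kinesin gene (log2, bars are 1 SE), from the model with group only (circles, filled where the adjusted p is under 0.05) and after adding the slide set (squares). The 10 filled circles, Kif12 included, have squares between -0.05 and 0.07.

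Markers of cell types and neighbouring regions were read in the same comparison, against the background of 18.1% higher and 9.84% lower. Higher were 5 of 10 striatal genes, 3 of 8 oligodendrocyte genes and 2 of 8 neuronal genes (Nefl and Rbfox3), with 0 lower in these lists. Of 8 oligodendrocyte precursor genes 3 were higher and 2 lower, of 14 hypothalamic genes 1 was higher and 2 lower, and of 7 astrocyte and 7 microglia genes 1 each was higher and 1 each lower. Of 3 tested pituitary genes 1 was lower. Among the 9 thalamic, 7 choroid plexus, 5 endothelial and 5 ependymal genes tested 0 passed. The mean of the neuronal genes ran from 3.21 to 3.41 in control, from 3.14 to 3.35 in stress rats 1 to 4, was 3.42 in stress rats 5 and 6, and ran from 3.33 to 3.50 with stress and exercise. The mean of the striatal genes ran from 1.02 to 1.15 in control, from 1.07 to 1.47 in stress and from 1.22 to 1.75 with stress and exercise. Of the 8 dividing-cell markers 7 were tested and 0 passed. With the mean levels of the striatal and thalamic lists as covariates 0 kinesin genes passed, against 0.00766% of all named genes, while Kif5c differed by 0.46 (adjusted p = 0.0768). The part of these cells in the result was not tested beyond this.

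Kif16b, which moves early endosomes, had 3 tested probes, and they disagreed. Probe A_42_P660046 was at -1.73 and -1.65 in stress rats 5 and 6 and between -5.09 and -3.82 in the other 16 rats. The 2 exercised rats on the same slide as stress rats 5 and 6 were at -4.39 and -4.29. This probe was therefore high in 2 rats of 1 group and low in their neighbours on the slide. Between the later and earlier slides within stress it differed by 2.73 (SE 0.24, adjusted p = 4.53e-07), and by 1.05 with normexp background correction (adjusted p = 5.40e-08). With the slide set as a covariate, stress with exercise lay below stress by 2.59 on the log2 scale in this probe (SE 0.22, adjusted p = 0.000120), where 0.0160% of all tested probes passed. Without that covariate the difference was -0.77 (SE 0.47) and did not pass.

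The brightest Kif16b probe, A_42_P471608, gave another pattern. It was at -1.64, -1.58 and -1.66 in stress rats 2, 3 and 6 and between -2.66 and -2.25 in the other 15 rats. Stress rat 6 was thus high in both probes, stress rat 5 only in the first, and stress rats 2 and 3 only in the second. The third probe, A_44_P1104055, ran from -4.48 to -3.73 in all rats and was not set apart in any of these 4 rats. By the correlation over 18 rats, the probes most like A_42_P660046 among all tested were those of Crygd (r = 0.86), a lens crystallin gene, and Cntnap5bl1 (r = 0.85), and 0 probes had r over 0.9. Among tested neighbours of Kif16b in the annotation, r with that probe ran from -0.40 (Snrpb2) to 0.37 (Ndufaf5), with 0.11 for Flrt3. Both look-ups were chosen after the values of the probe were seen. The 18 points share slides and scan days, so these correlations are descriptions.

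**Figure D5:**
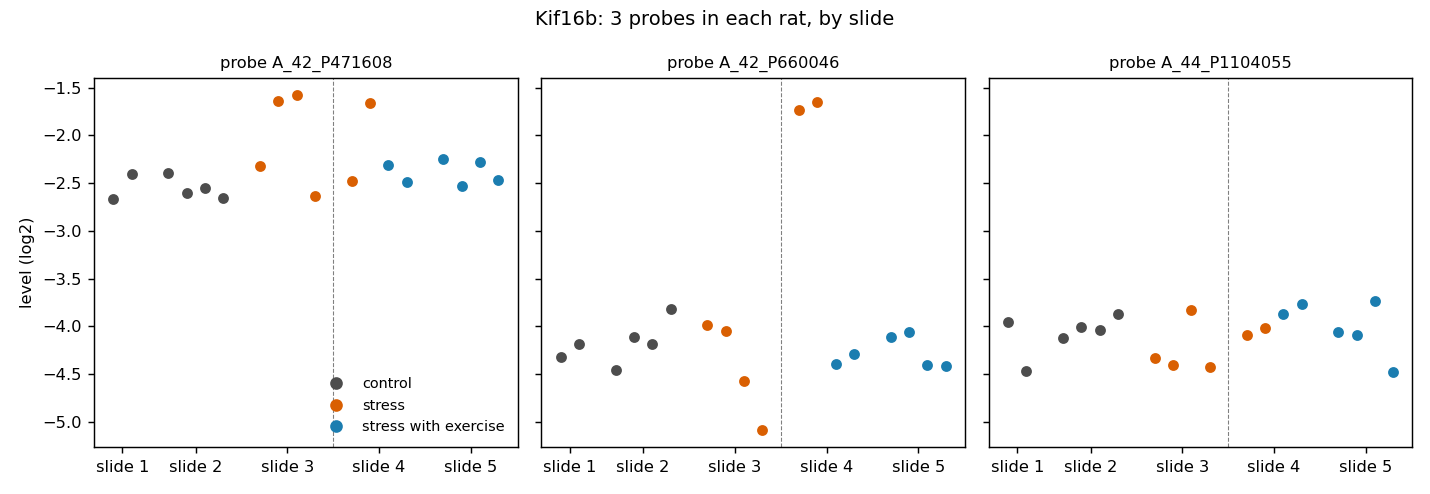
Levels of the 3 Kif16b probes (vertical axis, log2, 1 panel per probe) in each rat, placed by slide and coloured by group. In the middle panel stress rats 5 and 6 stand at -1.73 and -1.65, more than 2 log2 units above every other rat, while the right panel stays between -4.48 and -3.73.

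Agreement between probes could be read in 7 genes with 9 pairs of a brightest and another tested probe. The signs matched in 5 pairs between stress and control, in 6 pairs between stress with exercise and stress, and in 6 pairs between stress with exercise and control. Over the 18 rats r was above 0.5 in 2 pairs and below 0 in 2 pairs. The pairs above 0.5 were in Kif1b (r = 0.80) and Kif1c (r = 0.73). The further Kif1b probe A_64_P105573 differed by 0.29 between stress with exercise and control (SE 0.04, adjusted p = 0.000578), the smallest adjusted p of any kinesin probe in that comparison. Its stress rats ran from -0.34 to -0.14, above all control rats (-0.47 to -0.38), with a stress difference of 0.16 that did not pass (adjusted p = 0.236). The last Kif1b probe, A_44_P1159447, differed by 0.10 and did not pass (adjusted p = 0.690). The second Kif1c probe differed by 0.14 and passed (adjusted p = 0.0488). With the slide set as a covariate A_64_P105573 differed by 0.20 (SE 0.07), the brightest Kif1b probe by -0.01 and A_44_P1159447 by -0.20. In that fit the brightest Kif1c probe differed by 0.05 and the second by 0.19 (SE 0.09), and none of these probes passed. Between the later and earlier slides within stress A_64_P105573 differed by 0.09 and did not pass (adjusted p = 0.285).

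The pairs below 0 were in Kif2a and Kifc3. Kif2a, a microtubule-depolymerising motor that limits axon branching, differed by 0.03 in its brightest probe, with control at -0.40 ± 0.08 and stress with exercise at -0.37 ± 0.04 (SD, n = 6 each). Its other probe, A_44_P146893, fell from -1.56 ± 0.08 to -1.80 ± 0.11, a difference of -0.24 (SE 0.08, adjusted p = 0.0331). The same probe differed by -0.34 between the later and earlier slides within stress (adjusted p = 0.0143). Over the 18 rats the Kif2a probes had r = -0.59. Kifc3 rose by 0.19 in the brightest probe and fell by 0.31 in probe A_44_P407834 (adjusted p = 0.0439), with r = -0.39, so the direction for this gene depended on the probe. The remaining pairs, in Kif16b, Kif26a, Klc3 and Kif1b, had r between 0.02 and 0.45. Counting a gene as called when any probe passed gave 11 kinesin genes between stress with exercise and control. The share of all named genes under this rule was not counted, so the number is only a description. By probe, 14 of 37 kinesin probes passed, against 8506 of all 31299 tested probes.

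Other genes of microtubule transport were read from 4 lists. Between stress with exercise and control the background over all named genes was 18.1% higher and 9.84% lower. Between stress with exercise and control 8 of 17 tested adaptors and cargoes of kinesin passed as higher and 1 as lower. The largest of them were Nefl, the light neurofilament chain (0.39, adjusted p = 0.0159), Trak2 (0.27, adjusted p = 0.00763), Rhot1 (0.24, adjusted p = 0.0131) and Rhot2 (0.18, adjusted p = 0.0395). Trak2 joins the heavy chains to Rhot1 and Rhot2, the proteins that anchor the motor on mitochondria. The lower gene was Kifbp, which binds and inhibits a subset of kinesin motors (-0.13, adjusted p = 0.0390), named after its value was seen.

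Cytoplasmic dynein with dynactin carries cargo back to the cell body, and 5 of its 23 tested genes passed as higher and 0 as lower. This is near the background of 18.1% higher. Dctn2 (0.25, adjusted p = 0.00135), Dctn1 (0.22, adjusted p = 0.0354) and the heavy chain gene Dync1h1 (0.22, adjusted p = 0.00643) were among them, with Dync1li2 at 0.16. Of 18 tested genes of the microtubule itself 6 passed as higher, among them Map1a (0.24, adjusted p = 0.00263), Tubb4a (0.22, adjusted p = 0.00233), Tuba4a (0.19) and Mapre3 (0.19). The medians were 0.14 for the adaptors, 0.05 for dynein and dynactin and 0.05 for microtubule genes, beside 0.05 for all named genes. With the slide set as a covariate 0 genes of these 4 lists passed, and Trak2 differed by 0.13, Rhot1 by 0.21 and Racgap1 by 0.03. Between stress and control 0 genes of these lists passed, as for all named genes. Between stress with exercise and stress 1 passed, Map1a (0.19, adjusted p = 0.0463), where the background was 3.26%.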

How the data were processed

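Hypothalamic RNA of 18 rats was hybridised to Agilent single-colour arrays, 1 per rat. The deposited intensity is the processed signal. Per the file headers it had its background subtracted and a spatial trend removed. They name Feature Extraction 12.1.0.3 and the submitters' processing notes 9.1. The authors' deposited series matrix held the same intensity times 1 constant per array (1.02 to 1.24). Per the file headers the arrays were designed on rn4, so no probe positions are given.

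Levels are log2 processed signals from which the 75th percentile of the same array was subtracted. Outlier spots were left out and spots of a probe averaged; the precision is limited by the number of arrays. Names came from transcript accessions matched to RefSeq genes of GRCr8: 21220 of 45598 probes matched 1 symbol and 24378 none. The filter on dim probes left 31299 for testing. Comparisons used limma 3.58.1 (lmFit, eBayes; R 4.3.3) on all 18 arrays with group as the term, two-sided, with Benjamini-Hochberg adjustment over all tested probes and a threshold of 0.05. A fit on simulated data was tested first.

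Alternatives were quantile or no scaling, normexp (offset 50) on the median signal, since the mean signal column was not used here, the series matrix, other filters, any probe per gene, slide set, slide, scan day, fewer samples, the replicate number as a block, and each rat left out. Normexp on that column, within-day fits, marker covariates and the slide contrast without single rats were chosen after seeing the data. Replicate numbers came from the titles. Over the 6 numbers, 1, 2 and 1 pairs had deviations correlated above 0.1 in the 3 comparisons, so they were not taken as pairs. Nothing in the labels says that rats shared litters or cages.

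Named were genes with an adjusted p under 0.05 in any tested probe (up to 12 per direction and comparison), the 2 smallest p per role where none passed, genes whose probes disagreed, 19 genes in every case (Kif1a, Kif1b, Kif3a, Kif5a, Kif5b, Kif5c, Kif16b, Kif17, Kif21b, Klc1, Klc2, Kif2a, Kif2c, Kif11, Kif20a, Kif22, Kif23, Kif27, Kif9), the 3 highest and 3 lowest levels, and up to 4 passing members of each other list. The members and lists were chosen with earlier results of these data known.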

Additional observations from a re-analysis of the deposited data

Results flagged for a closer look

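Among 111 sets of 6 rats (each of 37 tested kinesin probes in each group), 5 held a rat far from the others by Dixon's test at the 95% level, which flags about 1 set in 20 by chance. Kif11 was at -5.52 in rat 4 with stress and exercise, where the nearest rat was at -5.01. Kif15 was at -6.44 in control rat 4, against -5.05 in the nearest control rat. Kif5a was at -0.70 in rat 5 with stress and exercise, against -0.38 in the nearest. Kif9 was at -3.09 in stress rat 1, against -2.88 in the nearest. The Kif1b probe A_44_P1159447 was at -1.74 in stress rat 3, against -0.83 in the nearest. The 2 high Kif16b values of stress rats 5 and 6 lie together and so do not meet this test.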

How the results depend on the processing

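Between stress with exercise and control, where 10 kinesin genes passed, the count was 3 without scaling, 0 with the slide set as a covariate, 0 with slide as a random block, 4 within scan day 1, 4 within scan day 2, 0 with marker means as covariates, and 6 to 12 with each rat left out. Between stress and control, with 0 calls, it was 3 within scan day 1 (10.6%) and 0 to 0 with each rat left out. Between stress with exercise and stress 0 kinesin genes passed (3.26%). The count was 1 with scan day as a block (1202 of 13052), 10 without stress rats 5 and 6 (26.5%) and 7 within scan day 2 (24.4%). With each rat left out it was 0 to 6, where 6 came without stress rat 5 (14.5%). Between the later and earlier slides within stress 6 kinesin genes passed (16.5%). The count was 3 after quantile normalization (1854 of 13052) and 2 without scaling (7.36%). With each stress rat left out it was 2 to 7, where 2 came without rat 6 (7.77%) and 7 without rat 3 (2030 of 13052). In the brightest probes the fits with the slide set turned Klc1 (-0.024), Kif1b (-0.014), Kif3c (-0.023), Klc4 (-0.0082), Kifc3 (-0.0069) and Kif23 (0.073) between stress with exercise and control. Of the other Kif1b probes A_64_P105573 kept its sign (0.20) and A_44_P1159447 turned (-0.20). The other probe of Kifc3 turned it to -0.31. Apart from the shared slides, the cause of these changes was not tested.

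The replicate block gave 0, 0 and 8 calls in the 3 group comparisons, where 0, 0 and 3096 of the 13052 named genes were called. The r between numbers was -0.25 to 0.19. The numbers of the rats are names only, so this is no paired result. Dim probes limit the cell division group, where 5 of 11 genes were not tested.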
